A study of Schizosaccharomyces pombe with 56 samples.

Results

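The genes described here encode the proteins of the small (40S) ribosomal subunit of fission yeast (Schizosaccharomyces pombe). They were taken as every annotated nuclear protein-coding gene with a symbol of rps followed by a digit and a 40S ribosomal protein as its product, which gave 55 genes of 5113. The mitochondrial gene that is also called rps3 has another product and is no member. The measurement was chromatin immunoprecipitation and sequencing (ChIP-seq) of histone H3 dimethylated at lysine 9 (H3K9me2). Cells of the wild type, strain 975 h+, were grown in minimal medium and taken either before starvation (0 h, labelled control) or 24 h after transfer to the same medium without nitrogen, where the cells stop dividing and become quiescent. The series also holds strains that lack clr4 or ago1, a time point at 1 h, H3K9me3 libraries and inputs, which were not analysed here. The table used compares wild type at 24 h with wild type at 0 h over 2192 regions, and every such region that overlapped a member's gene body by at least 1 bp was taken.

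The 40S subunit binds the mRNA, scans it for the start codon and reads its codons. It consists of the 18S rRNA and a set of small, mostly basic proteins, many of which are encoded in fission yeast by more than 1 gene copy. These genes are among the most highly transcribed of growing cells, and their transcription is known to follow nutrient signals through the Tor kinase pathway. H3K9me2 is set in fission yeast by a single methyltransferase, Clr4, and is best known from silent heterochromatin at centromeres, telomeres and the mating-type locus, whereas ribosomal protein genes lie in euchromatin.

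The tables give 1 mean per group and region, in reads scaled by the authors (normalised reads), with no depth and no spread. Labels list 6 H3K9me2 libraries per time point, and the sheet name lists 5 digits. Whole reads per library were recovered from the means under 5 libraries per group. At 0 h 2 libraries carried signal in the recovered regions, called A and B here, and at 24 h 3 libraries did, called C, D and E. The remaining libraries, 3 at 0 h and 2 at 24 h, never exceeded their minimum of 1 read there. Labels list only 4 inputs for the 6 H3K9me2 libraries of each time point. Whether inputs were subtracted is not given, so 1 read may be a floor of the processing and not a count. The lowest group mean was 0.770 normalised reads at 0 h and 0.771 at 24 h. The labels do not say whether libraries came from separate cultures, so the deposited p-values measure only the spread between these libraries. Because libraries at the minimum were present in both groups at each of these regions, the library values of 0 h and 24 h overlapped at all of them.

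H3K9me2 was higher at 24 h over 14 of the 55 small-subunit genes in the authors' deposited table at a false discovery rate (FDR) of 0.05. They included rps001, rps101, rps102, rps3, rps602, rps7, rps901, rps902, rps1202, rps13, rps1501, rps1602 and rps1802. A further 9 members lay under regions that were tested and did not pass, 16 lay under regions listed with a p of 1, and 16 lay under no region. No member lay under a region that fell: the count was 0 at the FDR, 0 at an unadjusted p under 0.05 in the authors' deposited table, and 0 by limma on the recovered library values, also unadjusted. As background, 10.5% of all protein-coding genes lay under a region that rose and 0.196% under a region that fell. Among genes under any tested region the background was 31.8%, against 14 of the 23 members under such a region. Over the regions themselves it was 32.7% higher and 0.722% lower. limma on the recovered values called 0 regions in all, members included, with 61 regions at an unadjusted p under 0.05, of which 1 was a member's, that of rps3.

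The 39 members under a region shared 38 distinct regions, since rps2 and rps20 lie under the same one. Their median log2 change was 3.82, against 2.43 over all 2192 regions. With values under 3 counts per library (2.31 normalised reads) raised to that level, the medians were 2.27 and 1.69. Of the 38 regions, 31 stood at the minimum at 0 h and 4 stood at the minimum at both times. The median rested on 1 library: without library C it was -0.01, and 17 of the 38 regions had their whole 24 h signal in that library. Such reliance was not particular to the members, since 979 of all 2192 regions had signal in only 1 library at 24 h. When both groups were scaled so that tested regions had equal medians, which lowered all log2 changes by 1.72, 29 of the 38 regions kept a positive value and 9 had a negative one. These 9 include the 4 regions at the minimum at both times, which cannot be read as lower. The same counts over all regions were not made, so 29 of 38 cannot be read as a trait of the members.

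**Figure D1:**
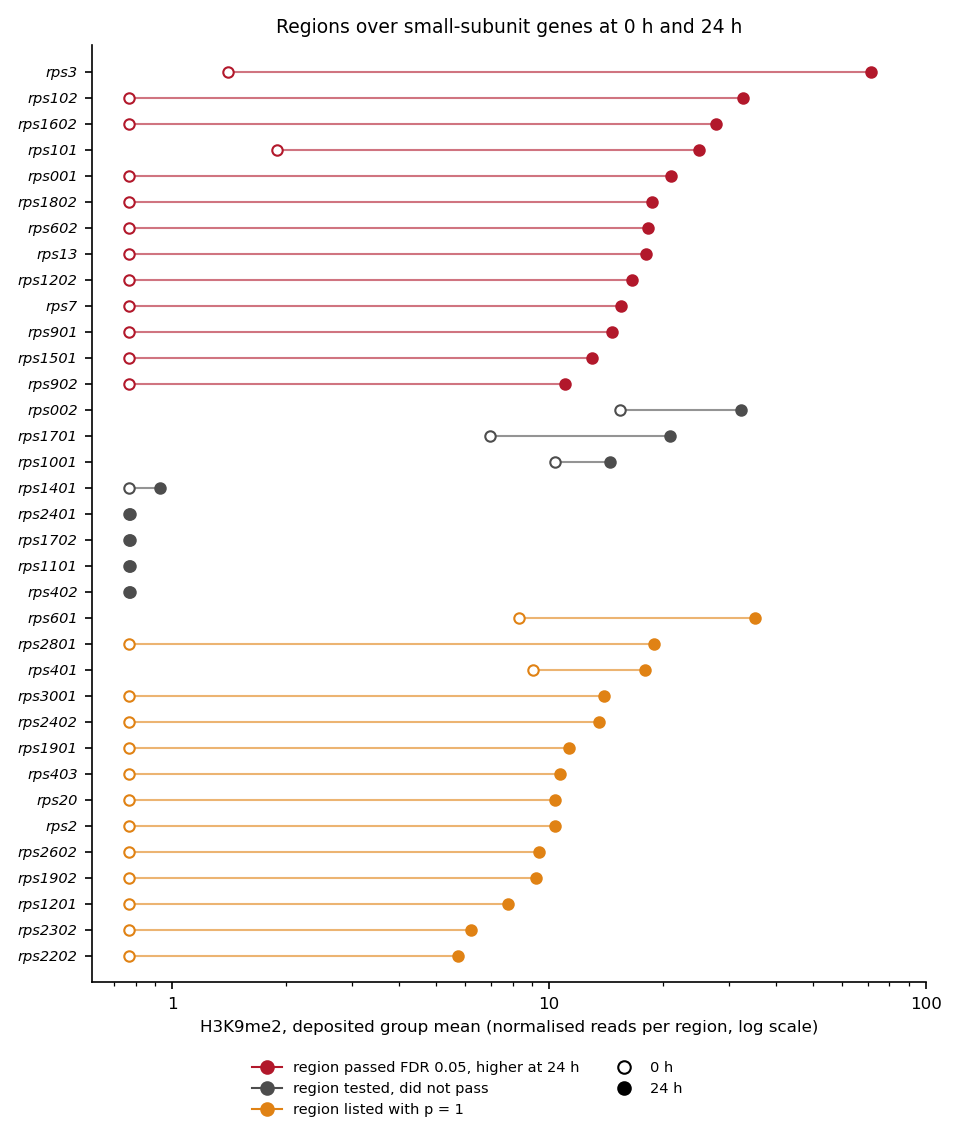
Deposited group mean of regions over small-subunit genes at 0 h (open circles) and 24 h (filled circles), in normalised reads per region on a log scale, 1 line per gene. The 13 genes drawn whose region passed the FDR of 0.05 (red) stood between 0.770 and 1.90 normalised reads at 0 h and between 11.0 and 71.3 at 24 h. Grey lines are regions that were tested and did not pass, and orange lines are regions listed with a p of 1.

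Sequence upstream of the genes is shown for the member with the highest 24 h mean and for copies of the same protein that did and did not lie under a region that rose. Many ribosomal protein genes of fission yeast carry a HomolD box in place of a TATA box, often with a HomolE box before it. Here HomolD was searched as CAGTCACA and HomolE as the 10 letters in capitals ahead of HomolD in rps102, on both strands, from 250 bp before to 50 bp after the annotated start of each gene. HomolD was found at 34 of 55 members (61.8%), against 2.68% of all 5113 protein-coding genes. HomolE was found at 21 members (38.2%), against 1.25% of all genes. HomolD began between 85 and 43 bp before the start, with a median of 52. By class, it was present at 8 of the 14 members under a region that rose, 5 of 9 that were tested without passing, 12 of 16 under regions listed with a p of 1 and 9 of 16 under no region. HomolE was present at 6, 5, 6 and 4 of these. No match says only that these letters were not in the window. In the following stretches, the 150 bases before the annotated start in RefSeq assembly ASM294v3, on the gene's strand and 5′ to 3′, capitals mark HomolD or HomolE on either strand.
rps3: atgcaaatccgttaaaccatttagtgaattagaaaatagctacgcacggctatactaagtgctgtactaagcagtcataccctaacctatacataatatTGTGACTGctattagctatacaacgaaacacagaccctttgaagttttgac
rps101: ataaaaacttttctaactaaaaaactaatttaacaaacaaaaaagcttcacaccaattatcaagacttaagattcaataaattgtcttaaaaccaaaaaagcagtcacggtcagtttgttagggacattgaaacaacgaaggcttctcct
rps102: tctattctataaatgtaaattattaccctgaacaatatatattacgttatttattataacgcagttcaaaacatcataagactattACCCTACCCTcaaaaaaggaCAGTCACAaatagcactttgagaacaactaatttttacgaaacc
rps901: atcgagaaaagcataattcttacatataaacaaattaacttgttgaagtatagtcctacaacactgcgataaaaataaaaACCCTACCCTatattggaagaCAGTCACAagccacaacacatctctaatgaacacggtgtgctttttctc
rps902: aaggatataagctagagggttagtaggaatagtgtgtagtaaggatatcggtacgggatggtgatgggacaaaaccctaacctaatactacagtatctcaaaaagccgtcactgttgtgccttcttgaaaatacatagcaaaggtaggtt
In rps3 the capitals are a HomolD box on the reverse strand, and rps102 and rps901 hold HomolE followed by HomolD. In rps101 and rps902, which also lay under regions that rose, neither motif was found in these letters. The next 6 stretches are the families in which 1 copy lay under a region that rose (rps1501, rps1602 and rps1802) and the other copy under no region (rps1502, rps1601 and rps1801).
rps1501: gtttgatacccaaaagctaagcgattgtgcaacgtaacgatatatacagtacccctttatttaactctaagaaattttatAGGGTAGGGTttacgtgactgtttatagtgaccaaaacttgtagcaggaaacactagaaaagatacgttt
rps1502: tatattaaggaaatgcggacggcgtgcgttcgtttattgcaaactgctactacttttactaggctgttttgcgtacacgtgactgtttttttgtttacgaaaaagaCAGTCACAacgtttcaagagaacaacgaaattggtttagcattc
rps1601: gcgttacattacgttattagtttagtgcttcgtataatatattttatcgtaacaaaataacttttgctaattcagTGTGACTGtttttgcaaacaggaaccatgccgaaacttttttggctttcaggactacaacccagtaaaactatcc
rps1602: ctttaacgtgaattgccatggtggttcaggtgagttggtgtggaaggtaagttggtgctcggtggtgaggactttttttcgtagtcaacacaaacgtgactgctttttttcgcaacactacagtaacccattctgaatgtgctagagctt
rps1801: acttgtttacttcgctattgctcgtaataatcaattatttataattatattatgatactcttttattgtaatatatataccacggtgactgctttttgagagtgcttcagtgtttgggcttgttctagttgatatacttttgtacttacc
rps1802: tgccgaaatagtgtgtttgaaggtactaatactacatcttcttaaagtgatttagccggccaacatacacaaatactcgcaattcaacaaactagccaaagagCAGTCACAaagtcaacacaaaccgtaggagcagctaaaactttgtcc
Among the 3 copies that rose, HomolD was present in rps1802, HomolE in rps1501 and neither in rps1602. Among the 3 copies under no region, HomolD was present in rps1502 and rps1601 and neither motif in rps1801.

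The genes are described below by the place of their protein in the subunit, for order only. The share that rose was not compared between places, so no link to a place can be read. At the mRNA entry channel, which in budding yeast structures is lined by uS3, uS4 and uS5, genes of the first 2 of these proteins rose. The rps3 gene, which encodes uS3, had the highest 24 h mean of the members. Its region at chromosome II 4238291 to 4239052 (build ASM294v2) lay wholly inside the gene, which has 1 intron in its coding sequence, and also overlapped ptf2. The 0 h libraries held 3.84 normalised reads in A and the minimum in the others, and the 24 h libraries held 134.9 in C, 133 in D and 87.1 in E. This was the only one of the 14 regions with signal in 3 libraries at 24 h. In the authors' deposited table its mean went from 1.41 to 71.3 normalised reads, a log2 change of 5.66 (FDR = 0.00194). limma on the recovered library values gave an adjusted p of 0.571 for it. Per length it stood at 93.5 normalised reads per kb at 24 h, the highest of the 38 regions.

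The 2 copies of the uS4 gene both rose. Over rps901, 24 h library C held 29.5 normalised reads and D held 42, and the 0 h libraries were at the minimum. The authors' deposited table gave a 24 h mean of 14.7, at least 6.36-fold above 0 h (FDR = 0.0101). For rps902 library C held 31.9 and D held 21. Its mean of 11.0 was at least 4.75-fold above 0 h in the authors' deposited table (FDR = 0.0157), and its region also overlapped pdp1. Library E stood at its minimum over both copies. The uS5 gene rps2 lay under a region of 2721 bp that it shares with rps20 and ret3, listed with a p of 1, where library C alone held signal, 48.7 normalised reads.

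In the head of the subunit, to which uS3 also belongs, 4 further genes rose. They encode uS13 (rps1802), uS19 (rps1501), uS9 (rps1602) and eS12 (rps1202). The rps1802 region at chromosome III 1032907 to 1033272 lay wholly inside the gene and held 76.7 normalised reads in library C and 15 in D. Its mean of 18.7 in the authors' deposited table was at least 8.10-fold above 0 h (FDR = 0.00771). Over rps1202, at chromosome II 498494 to 498884, C held 43.9 and D held 37 normalised reads. The deposited mean of 16.6 was at least 7.17-fold higher by the authors' deposited table (FDR = 0.00835), and pmp1 overlaps the same region. C was thus the higher library by far over rps1802, and the libraries were close over rps1202.

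The other 2 head regions reached well into a neighbouring gene. The region at rps1602, chromosome I 1710770 to 1711926, also covered rpl13, a large-subunit gene, and only 27.1% of it lay inside rps1602. Library D held 98 normalised reads there and C held 38.3. The authors' deposited table gave a mean of 27.7, at least 12.0-fold above 0 h (FDR = 0.00445). The region at rps1501 also covered spt2, and 25.9% of it lay inside rps1501. With 20.0 normalised reads in C and 43 in D, its mean of 13.0 was at least 5.62-fold higher in the authors' deposited table (FDR = 0.0125). Which gene of such a region carried the reads cannot be told from a region mean.

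Among the other head genes, rps1001 (eS10) and rps1701 (eS17) already had reads above the minimum at 0 h, in libraries A and B only. Over rps1001 the 0 h libraries held 18.6 in A and 31.1 in B, and the 24 h libraries 31.9, 32 and 7.44 normalised reads in C, D and E. The values at the 2 times lay in the same range, and the authors' deposited table gave a log2 change of 0.49 (FDR = 0.937). Over rps1701 the values were 10.9 and 21.7 at 0 h and 51.1, 39 and 13.4 at 24 h, with a log2 change of 1.59 in the authors' deposited table (FDR = 0.462). The second eS17 gene, rps1702, lay under a region at the minimum at both times, which also covers yta4. Genes of eS19 (rps1901, rps1902), uS10 (rps20), eS28 (rps2801) and eS12 (rps1201) lay under regions listed with a p of 1. No region covered rps29 (uS14), the eS25 genes rps2501 and rps2502, rps2802, rps1002 or rps1502.

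In the body of the subunit the genes of eS6 (rps602), eS7 (rps7) and uS15 (rps13) rose. eS6 is the ribosomal protein that is phosphorylated downstream of the Tor pathway. The region over rps602, at chromosome I 3319370 to 3320034, held 33.5 normalised reads in C and 56 in D. In the authors' deposited table the mean of 18.3 was at least 7.92-fold above 0 h (FDR = 0.00738). Over rps13, which has 3 introns in its coding sequence, the region at chromosome I 2745940 to 2746532 held 53.5 in C and 35 in D, with a mean of 18.1 and a rise of at least 7.83-fold in the authors' deposited table (FDR = 0.00741). The rps7 region at chromosome I 2241889 to 2242410 held 45.5 in C and 30 in D. Its mean of 15.5 was at least 6.70-fold higher in the authors' deposited table (FDR = 0.00937). At these 3 genes the 0 h libraries and library E stood at the minimum and the region lay wholly inside the gene.

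Body genes that did not pass included those of eS4, uS17 and eS24. The eS4 gene rps402 lay under a region at the minimum at both times, as did rps1101 (uS17) and rps2401 (eS24). The second eS6 gene, rps601, lay under a region of 4474 bp with gcv2, where library A held 38.4 normalised reads at 0 h and library C held 172.5 at 24 h. It was listed with a p of 1, as were rps401, rps403, rps2202 (uS8), rps2302 (uS12), rps2402 and rps3001 (eS30). Over rps401 library B held 42.4 at 0 h and library C 87.0 at 24 h. No region covered rps1102, rps2201, rps23 or rps3002.

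On the platform side, where the mRNA leaves, the genes of eS1 and uS2 rose. Both eS1 copies passed. The rps102 region at chromosome I 897941 to 898888 had 130.2 normalised reads in C and 31 in D. Its mean of 32.6 was at least 14.1-fold above 0 h in the authors' deposited table (FDR = 0.00382), the largest bound among the members. The rps101 region at chromosome I 175066 to 175551 was above the minimum at 0 h, with 6.59 normalised reads in B, and held 79.8 in C and 43 in D at 24 h. The authors' deposited table gave means of 1.90 and 25.0 and a log2 change of 3.72 (FDR = 0.0349), the weakest call of the 14. Library C held most of the 24 h signal over both copies.

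For uS2, rps001 rose and its copy rps002 did not pass. The rps001 region at chromosome II 2779059 to 2780519 also covered the large-subunit gene rpl2701 and held 79.0 normalised reads in C and 24 in D. The authors' deposited table gave a mean of 21.0, at least 9.08-fold above 0 h (FDR = 0.00631). The rps002 region, wholly inside that gene, had signal in every library with recovered signal. It held 47.4 and 27.3 normalised reads at 0 h and 51.1, 72 and 37.2 at 24 h. With a mean of 32.3 at 24 h it stood above rps001, also per length at 57.1 against 14.4 normalised reads per kb, and its log2 change was 1.07 in the authors' deposited table (FDR = 0.726). The uS11 gene rps1401 lay under a region of 6149 bp near the minimum at both times, rps2602 (eS26) under a region listed with a p of 1, and rps1402, rps2601, rps21 and rps27 under no region.

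**Figure D2:**
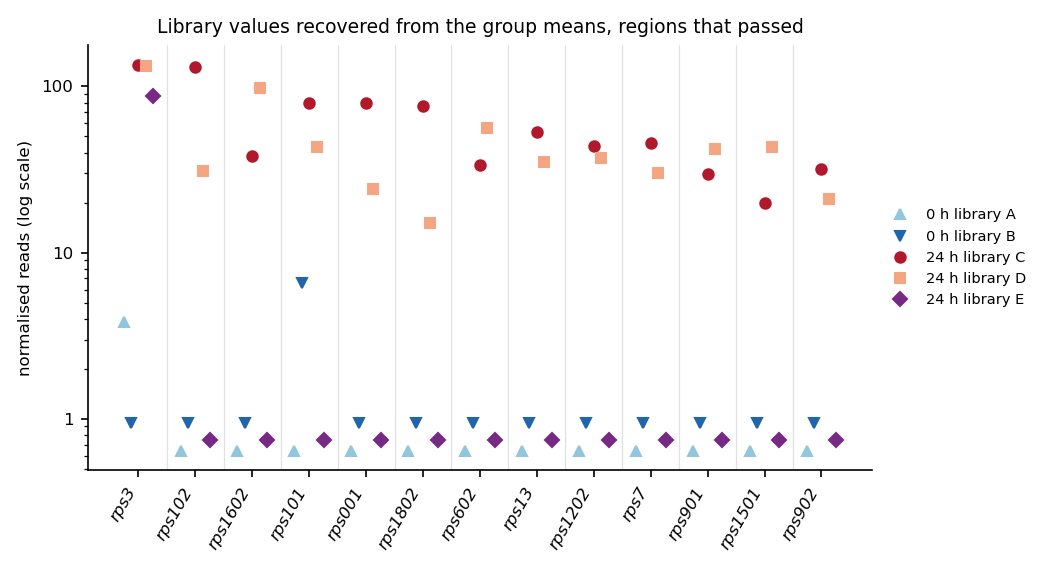
Normalised reads recovered for each library with signal, on a log scale, over 13 of the 14 small-subunit genes whose region passed, ordered by the 24 h mean. Libraries C and D held between 15 and 135 normalised reads at each gene, library E rose above its minimum at rps3 alone, and the 0 h libraries A and B at rps3 and rps101.

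Across the 14 regions library C held from 20.0 to 135 normalised reads, with a median of 44.7, and library D from 15 to 133, with a median of 36. C was the higher of these libraries at 9 regions and D at 5. The median share of the 24 h reads was 55.5% in C, 38.7% in D and 0.859% in E. With C left out the 14 regions kept a higher 24 h mean, with a lowest log2 change of 2.47 and a median of 3.53, and with D left out the lowest was 2.84. No test was made without a library. The 15 member regions listed with a p of 1 differed in make-up: each had signal in library C and in no other library at 24 h. Among all regions, 688 of the 807 regions listed with a p of 1 had signal in 1 library at 24 h. The share of regions with signal in D was 14 of 14 among the members that passed and 440 of 453 among all regions that rose, and signal in E was found at 1 of 14 and 143 of 453.

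Gene copies of the same protein did not always share a class. The 55 genes formed 31 families, of which 8 had 1 copy, 22 had 2 and 1 had 3. Among the 23 families with several copies, every copy rose in 2 (rps1 and rps9), some but not all copies in 7, and no copy in 14. In 3 of the 7, the other copy lay under no region (rps15, rps16 and rps18). In the other 4, among them rps0, rps6 and rps12, it lay under a region that did not pass or was listed with a p of 1. Of the single-copy genes rps3, rps7 and rps13 rose, rps2 and rps20 lay under a region listed with a p of 1, and rps21, rps27 and rps29 lay under no region. Copies were not tested against each other. Of all 55 members 14 rose, and how often unrelated genes would differ in this way was not counted. The family counts therefore cannot be read as a trait of copies.

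Per length, copies of a family were close in some cases and apart in others. At 24 h rps101 stood at 51.4 and rps102 at 34.4 normalised reads per kb, and rps901 at 31.4 and rps902 at 21.8. The eS6 genes had 27.5 (rps602) and 7.85 (rps601), and the eS12 genes 42.4 (rps1202) and 14.4 (rps1201). These region means depend on how far each region reaches beyond the gene. Coding sequences of copies were 74.0% to 94.0% identical, with a median of 88.0% over 25 pairs, and the longest identical stretch of a pair of gene bodies ran from 14 to 151 bp, with a median of 35 bp. A read that lies wholly inside such a stretch cannot be assigned to 1 copy, whereas a read that reaches beyond it can. The sources used here do not give how reads of the first kind were treated.

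**Figure D3:**
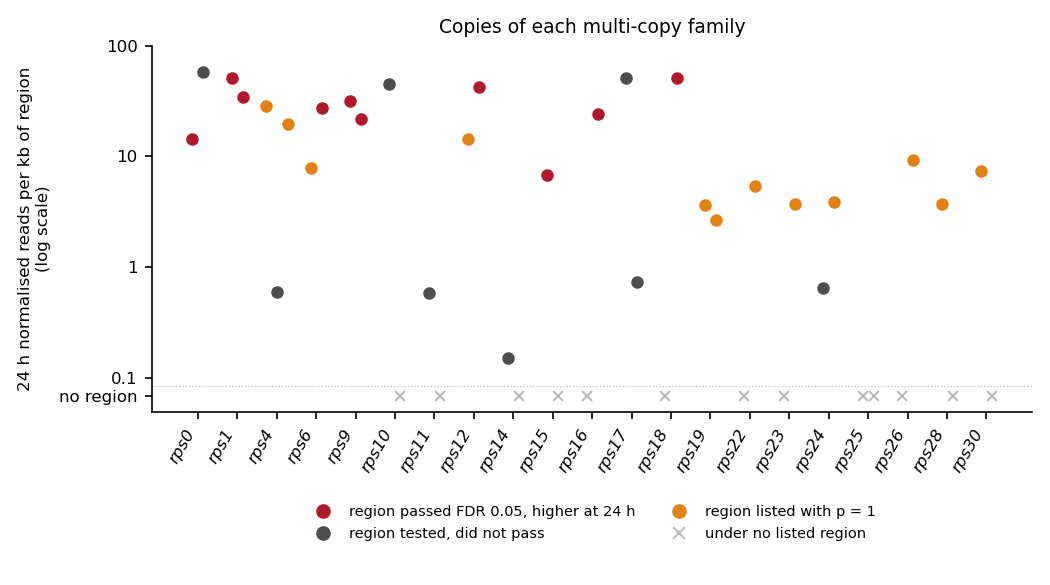
Deposited 24 h mean per kb of region, on a log scale, for every copy of 21 of the 23 families with several copies. Red marks copies whose region passed, grey copies whose region was tested and did not pass, orange regions listed with a p of 1, and crosses copies under no region. All points are red at rps1 and rps9 only.

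The median width of the 14 regions that rose was 558 bp, against 1222 bp for all 453 regions that rose, and 10 of the 14 lay wholly inside the gene. This share, 71.4%, was close to the 73.1% for overlaps of all protein-coding genes with a region that rose. In 12 of the 14 the region began after the annotated start, 74 to 287 bp into the gene with a median of 157 bp, so the upstream sequences shown above lay outside it. The regions of rps1501 and rps1602 reached over the start, and those of rps001 and rps102 over the end. Region centres had a median position of 54.8% of the gene length, against 55.3% for all protein-coding genes under regions that rose. At 24 h these 14 regions had a median of 30.1 normalised reads per kb, against 22.2 for all regions that rose. Per region the order was the other way, with a median 24 h mean of 18.2 against 24.3 normalised reads. Their median log2 change was 4.49, against 4.75.

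**Figure D4:**
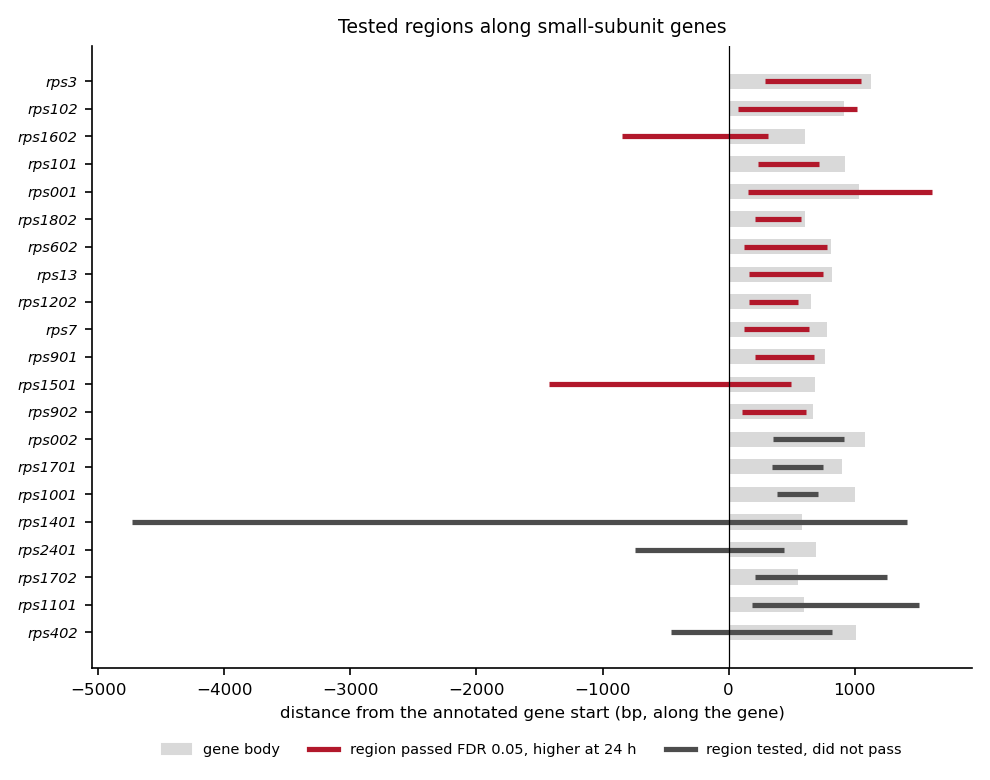
Extent of tested regions along the small-subunit genes they overlap, in bp from the annotated gene start. Grey bars are gene bodies, red lines regions that rose and dark lines regions that did not pass. Most red lines begin 74 to 287 bp inside the gene and end before its last base.

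Regions listed with a p of 1 were wider and less tied to the gene. Their median width was 1878 bp over the members and 1899 bp over all 807 such regions. Of the 16 genes, 13 shared the region with another protein-coding gene, among them rps2801 with his1 and cut7. Only 3 of the 16, rps401, rps403 and rps1201, held the region wholly inside the gene. In the median 27.0% of such a region lay inside the member gene. The 16 members under no region had the lowest median gene length of the classes, 493.5 bp, against 780 bp for the 14 that rose and 669 bp for all 55. Over all protein-coding genes the class under no region was also the shortest, at 1326 bp against 1986 bp for those that rose. The median GC content of the gene was 43.9% among members that rose and 41.0% among members under no region. Among all protein-coding genes these classes had 39.0% and 35.5%. Over all classes it was 42.8% for members and 36.8% for all protein-coding genes. The part of gene length and GC content in the calls was not tested.

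Other genes of the 40S pathway were described by lists. Of the 3 genes with a 40S product and another symbol, none passed. The authors' deposited table gave a log2 change of 2.74 (FDR = 0.181) for cpc2, the gene of RACK1, which had signal in 3 libraries at 24 h, and a 24 h mean at least 2.03-fold above 0 h (FDR = 0.0774) for ubi3, a ubiquitin fusion gene. No region covered ubi5. Among 74 large-subunit genes, 32 (43.2%) lay under regions that rose, 11 under regions tested without passing, 9 under regions listed with a p of 1 and 22 under no region. This compares with 14, 9, 16 and 16 of the 55 small-subunit genes, and the difference between the subunits was not tested. Among 44 matched genes of a list of 40S assembly factors, 4 lay under regions that rose and 14 under regions tested without passing. The list holds nep1, which in fission yeast encodes a NEDD8 protease and lay under a region listed with a p of 1.

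The 4 assembly factor genes were utp5, utp6 and rrp5, whose proteins act with the U3 snoRNA in early processing of the rRNA, and ltv1, a factor of late 40S maturation. In the authors' deposited table rrp5 went from 1.41 to 61.4 normalised reads, a log2 change of 5.44 (FDR = 0.00494). For utp5 the authors' deposited table gave means of 1.41 and 19.6 normalised reads (FDR = 0.0243), while utp6 was at least 3.81-fold higher (FDR = 0.0154) and ltv1 at least 4.51-fold (FDR = 0.0171). Of 15 matched genes on a list of regulators of ribosomal protein genes and the Tor pathway, 2 rose. The list holds rap1, annotated as a telomere-binding protein, and ste13, annotated as an RNA helicase, neither of which rose. The transcription factor gene sfp1 was at least 21.5-fold higher, at 49.7 normalised reads, and the protein kinase A gene pka1 at least 12.2-fold, at 28.2, in the authors' deposited table (FDR = 0.00205 and 0.00432). By the authors' deposited table the log2 changes were 2.51 (FDR = 0.268) for the forkhead factor gene fhl1 and 1.26 (FDR = 0.735) for tor2, the kinase gene of TORC1. At 9.09% and 13.3%, the shares of these lists that rose lay near the 10.5% of all protein-coding genes.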

How the data were processed

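H3K9me2 was measured by ChIP-seq of wild-type cells at 0 h and 24 h without nitrogen. Per the submitters' processing notes, which give no role or order, Bowtie2 2.2.7, MACS2 2.1, DiffBind 1.16.3, DESeq2 and build ASM294v2 were used. The sources used here do not give input subtraction, merging or filters. The authors deposited log2 group means of normalised reads and a log2 fold for each region, per the file headers, whose sign was turned here so that positive is higher at 24 h. The p-value and FDR of each region are the authors' deposited ones. Starts in the table count from 0 and were printed from 1. Depth per library is unknown.

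Genes came from the RefSeq annotation of ASM294v3, whose 3 nuclear chromosome lengths equal the last region ends of the table. No sequence was read by the table's coordinates. Upstream stretches were read by the annotation's own gene starts. Identity between copies came from global alignments (Biopython 1.88). The members, lists and tests were chosen with earlier results of these data known.

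Whole reads per library were recovered as multiples of the smallest increments of the means, which resolved 2177 regions at 0 h and 2175 at 24 h, each with 1 solution, and all 38 member regions. At 5 libraries per group the weight of 1 read in library D came to 1 normalised read. If the number of libraries were another, these values would be scaled. limma 3.58.1 (R 4.3.3, mean trend, Benjamini-Hochberg) was fitted to log2(value + 1) of 2174 regions as an alternative, with libraries at their minimum set to 1 read. The recovery and the limma fit were tested on simulated data. There limma found 24 of 67 regions changed 2-fold, 61 of 66 changed 4-fold and 66 of 67 changed 8-fold. Its simulated libraries shared 1 mean per group, whereas several recovered libraries stayed at their minimum. The result therefore does not show how limma performs on the recovered values. The recovery test drew reads at the recovered weights and could not test the number of libraries.

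Folds against the 0 h minimum are bounds against 3 counts per library, 2.31 normalised reads, and cover the deposited values only, since input reads may have been subtracted. Named genes were members under a region that passed, all copies of their families, and the highest 10 with coordinates. Upstream sequence followed a rule for 3 families with a copy under no region and 2 with every copy higher. That of rps3 was added after its values were seen. The alternatives were other FDR thresholds, overlap rules, scalings, limma, and leaving out each library. Genes of 2 families are included in the counts and medians but are not reported here by name or drawn.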

Additional observations from a re-analysis of the deposited data

Results flagged for a closer look

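Among the 14 regions that rose, the highest of the 5 libraries assumed stood far from the others of its group in 4 cases. The measure was Dixon's ratio of gap to range at its 95% critical value. Its usual chance rate of about 1 in 20 groups does not apply here, because several libraries of each group stood at their minimum. At 0 h the 12 regions at the minimum were left out. In the other 2, 1 library alone had signal, which makes the ratio high in itself. At 24 h these were rps102, with 130 normalised reads in library C, and rps1802, with 76.7 in library C. At 0 h they were rps101, with 6.59 in library B, and rps3, with 3.84 in library A, where the other libraries stood at their minimum. The causes were not tested.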

How the results depend on the processing

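No paired analysis was possible because the tables hold group means and the recovered libraries carry no replicate number. The 14 genes under regions that rose stayed 12 to 14 under the other overlap rules, the FDR of 0.1 and both scalings, which kept the deposited FDR and changed the fold only. They were 9 at an FDR of 0.01, 8 when regions over another protein-coding gene were left out, 1 when signal in 3 libraries at 24 h was required (chosen after seeing the data) and 0 with limma on recovered values. Families with every copy under a region that rose went from 2 to 0 at an FDR of 0.01, 0 with limma, 0 with signal in 3 libraries, and 1 among families with proteins over 95% identical, as translated from the annotated coding sequences. The genes under regions that fell stayed 0 under the FDR thresholds and overlap rules. The scalings and leaving out 1 library also gave 0, but they kept the deposited calls and so could add no gene. limma gave 0 as well, and it called 0 regions in either direction. Genes under regions that fell were not counted under the other alternatives. The median log2 change over member regions, 3.82, went to -0.00939 without 24 h library C. That is the value of a region at the minimum at both times, so it stands for no change and not for a fall. Leaving out 1 library each gave medians from -0.00939 to 4.12, 14 genes and 2 families, with no test. It was 4.35 with equal totals, 2.09 with equal medians of tested regions and 1.04 on limma's log2(value + 1) scale. The log2 changes of the 14 genes kept their direction with limma and none passed. Against the deposited minimum itself, the fold bounds of the 12 genes at the 0 h minimum would be 14.3 to 42.4 in place of 4.75 to 14.1. The depth of each library, which is unknown, limits values near the minimum most.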
